A study of Homo sapiens with 11 samples.

Results

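G15, a synthetic blocker of the membrane estrogen receptor GPER, was given to MDA-MB-231 cells at 10 µM for 3 h, alone on 1 array and together with 1 µM E2-BSA on another. Each of these arrays was set against an array whose label differed from it by G15 alone. The G15 array was set against the second control array, and the E2-BSA+G15 array against the second E2-BSA array. The rule that picks these 4 of the study's 11 arrays uses their labels only. The cells are a long-established, triple-negative line of human breast cancer. All groups had spent 4 h in medium with charcoal-stripped serum before treatment. The controls were untreated cells after the same change of medium. They were given no vehicle, so the part of any solvent of G15 or ICI in the differences was not tested. In E2-BSA, estradiol is joined to albumin, which hinders its entry into cells. A further pair of groups, ICI at 10 µM alone and with E2-BSA, gave a second antagonist, known here only by that abbreviation, at the same dose and time. Each antagonist group had 1 array, and the labels name no separate cultures for the duplicate control or E2-BSA arrays. The main fits used 1 array per group, so p-values below reflect how far antagonist differences disagree with and without E2-BSA. They measure no spread between replicates, and that disagreement may be technical.

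GPER is a membrane receptor that couples estrogen binding to heterotrimeric G proteins, adenylyl cyclase and, through SRC and release of heparin-binding EGF, to the EGF receptor and the ERK cascade. Its reported early targets are growth factor response genes such as FOS, EGR1 and CCN2. G15 binds GPER and blocks its activation by estrogen or by the agonist G-1, so that the comparison asks which transcripts differ when GPER signalling is blocked in the absence or presence of membrane-directed estradiol.

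The values were log2 values centred per probe set, with the base taken as 2. They give differences between arrays but no level of any gene, so whether a gene was detected, and whether the cell line's own markers were present, was not analysed here. Probe sets with 1 gene symbol were averaged, giving 19775 genes, and every difference was centred on its median gene. Before centring, the median gene stood 0.16 higher with G15 than in control (2), and 0.05 higher with E2-BSA+G15 than in E2-BSA (2). All differences below are log2 differences relative to that median gene, and 1 on this scale is a 2-fold difference.

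The E2-BSA+G15 array stood apart from the rest. Its 18S rRNA control probe sets, 3 in number, averaged -1.65 with a range of -1.81 to -1.49, while their means lay between -0.28 and 0.35 on the other 10 arrays. The ACTB control at the 3′ end was -0.02 and at the 5′ end 0.14 on that array, inside the range of the others at both ends. The spike-in controls with poly-A tails, 24 probe sets, averaged between -0.56 and 0.10 on 8 arrays, with the E2-BSA+G15 array at the upper end, and between 1.40 and 1.62 on 3 arrays that included the first control and the first E2-BSA array. The duplicates of control and of E2-BSA were thus split between these sets, and 5.14% of genes differed by more than 1 between the 2 control arrays and 4.83% between the 2 E2-BSA arrays. Both G15 pairs lie within the set of 8.

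The G15 array was most like the ICI arrays. Over all genes, the SD of the difference was 0.17 between G15 and ICI and 0.18 between G15 and E2-BSA+ICI, but 0.22 between G15 and the second control. By the same measure the second control and second E2-BSA arrays were 0.15 apart. The E2-BSA+G15 array lay 0.25 from its E2-BSA partner and 0.29 from the G15 array, the array that shared its antagonist. In genes differing by more than 1, G15 and ICI were separated by 5, G15 and the second control by 65, E2-BSA+G15 and E2-BSA by 130, and G15 and E2-BSA+G15 by 229.

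**Figure D1:**
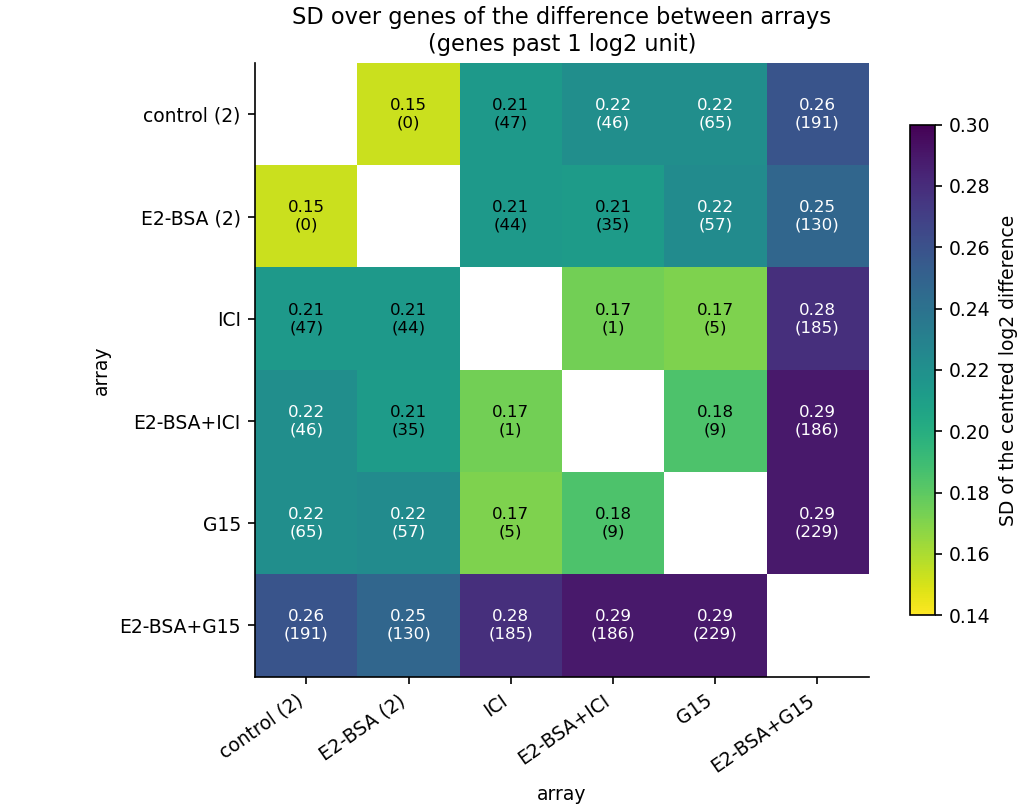
SD over 19775 genes of the centred log2 difference between each pair of the 6 arrays used, with the number of genes past 1 log2 unit in brackets. The G15 array is 0.17 from ICI and 0.22 from control (2), and every distance of the E2-BSA+G15 array is 0.25 or more.

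The drug's target and the other estrogen receptors differed little with G15. GPER1, the receptor itself, read -0.25 in the control and -0.06 in the G15 array, and -0.28 in the E2-BSA and 0.04 in the E2-BSA+G15 array. It was therefore higher by 0.19 and by 0.32 in the 2 pairs, and both of its probe sets were higher in both. Its mean difference was 0.25 ± 0.10 (SE) and did not pass the test (limma adjusted p = 0.664). GPER1 was also higher by 0.16 and 0.13 in the ICI pairs, which share their control and E2-BSA arrays with the G15 pairs, and the 2 control arrays differed by 0.48. ESR1, estrogen receptor alpha, differed by -0.01 and -0.10 in the G15 pairs, and ESR2, estrogen receptor beta, by 0.00 and 0.06. EGFR, the receptor through which GPER is reported to signal, was higher by 0.17 without E2-BSA and lower by 0.23 with it. Its probe sets were unlike, from -0.28 to 0.86 in the G15 pair and from -1.19 to 0.16 in the E2-BSA+G15 pair. The probe set at 0.86 differed by 0.89 in the ICI pair without E2-BSA. For EGFR, first minus second array was 0.12 in the control and -0.24 in the E2-BSA duplicates.

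Of the 27 genes of GPER signalling and its reported targets, 11 were higher in both pairs (40.7%) and 5 lower in both (18.5%). Over all genes, 27.0% were higher in both pairs and 27.0% lower in both. The list's medians were 0.05 in each pair. Without centring 16 were higher and 0 lower in both, with medians of 0.22 and 0.10. In a test of whether the pairs differed, 2 members, CCND1 and GNAI2, were called with the E2-BSA+G15 pair the lower one, as were 2.22% of all genes. Among signalling parts, the heparin-binding ligand gene HBEGF was higher by 0.12 and 0.13, the adenylyl cyclase gene ADCY3 by 0.26 and 0.14, and the tyrosine kinase gene SRC, named after its values were seen, differed by 0.01 and 0.02. Among reported targets, the transcription factor gene EGR1 was 0.24 and 0.43 higher, while it differed by -0.05 and -0.08 in the ICI pairs. These are means of unlike probe sets. In the G15 pair its probe sets differed by -0.39, 0.49 and 0.63, and in the E2-BSA+G15 pair by 0.18, 0.40 and 0.71. In the same order they differed by -0.60, 0.20 and 0.25 with ICI, and by -0.50, 0.15 and 0.11 with E2-BSA+ICI. FOS, another of the early response genes, was 0.10 and 0.36 higher. FOS differed by 1.21 between the control arrays and by 2.03 between the E2-BSA arrays, more than in either G15 pair. CCN2, a matricellular growth factor, was 0.12 and 0.06 higher. The wider list of 28 immediate early genes had 11 members higher and 6 lower in both pairs, with medians of 0.04 and 0.07.

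No gene passed the test for a difference with against without G15 over both pairs. Of 19775 genes, 0 had a limma adjusted p under 0.05 (0% called), and 1479 had an unadjusted p under 0.05. The smallest adjusted p was 0.268. This count rested on both G15 arrays being in the fit: with the G15 array left out, so that only the E2-BSA+G15 array carried the antagonist, 737 genes were called (95 higher and 642 lower), and with the E2-BSA+G15 array left out, 214 were called (28 higher and 186 lower). A lone array in these fits is assumed to vary like the others.

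A few genes were nonetheless lower by a similar amount in both pairs. By more than 0.5 in each, 44 genes were lower (0.223% of genes) and 3 higher (0.0152%). Without centring these counts were 16 and 16, and after quantile normalization 29 and 20. By more than 1 in each, 3 genes were lower and 0 higher. RPL38, a protein of the large ribosomal subunit, read 1.17 in the control and -0.13 in the G15 array, and 0.89 in the E2-BSA and -0.26 in the E2-BSA+G15 array. Both arrays with G15 lay below both without it. The mean difference was -1.22 ± 0.11 (SE), with a limma adjusted p of 0.268. The 2 arrays with ICI read -0.01 and 0.04, also below the second control and second E2-BSA arrays. PNRC2, a cofactor of mRNA decapping and nuclear receptors, read 0.05 and -1.08 without E2-BSA, and -0.01 and -1.18 with it, and the ICI arrays read -1.11 and -1.06. LINC02076, a long noncoding RNA gene, differed by -1.21 and -1.06 in the G15 pairs and by -1.19 and -0.84 in the ICI pairs.

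These gene values hid unlike probe sets. PNRC2 has a pair of probe sets: one differed by -2.11 in the G15 pair and by -0.07 in the E2-BSA+G15 pair, the other by -0.16 and -2.27. In RPL38, 2 of 3 probe sets were lower by 1.41 to 2.07 in both pairs, while the other was -0.63 and 0.11. One probe set of LINC02076 was lower by 2.40 and 2.45 and the other differed by -0.03 and 0.33. Without probe sets that can match several transcripts, LINC02076 was the only gene called, with a mean difference of -2.42 ± 0.10 (SE) and a limma adjusted p of 0.0014. With its probe sets averaged, LINC02076 also differed between duplicates. First minus second array was -1.39 for the control and -1.02 for the E2-BSA arrays.

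Among the other genes lower in both pairs, RPL27A, another large-subunit ribosomal protein, was lower by 0.89 and 1.19, and SOD2, the mitochondrial superoxide dismutase, by 1.15 and 0.77. Genes for RPL38 and RPL27A have near-identical processed copies in the genome, so their probe sets may read more than 1 locus. PPP1R10, a regulatory subunit of protein phosphatase 1 in the nucleus, was lower by 0.81 and 1.31, from one probe set at -0.48 and -2.58 and another at -1.13 and -0.04. KPNA3, an importin that carries proteins into the nucleus, was lower by 1.24 and 0.73. One of its probe sets gave -2.25 and -1.70 and the other -0.23 and 0.24, and without probe sets that can match several transcripts the mean difference was 0.0084. Probe sets annotated to SNORA21, a small nucleolar RNA gene, and LOC101927330 were lower by 1.30 and 0.97 and by 0.95 and 1.01. AGAP4 differed by -0.75 and -2.10. Several of these genes also differed between duplicates: first control minus second control was -2.44 for RPL38, -2.51 for RPL27A and -1.72 for SOD2. Of the 44 genes, 23 differed by more than 1 between the control arrays (52.3%, against 5.14% of all genes). PNRC2 differed by 0.01 and KPNA3 by 0.24.

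On the higher side, TCF15, a helix-loop-helix transcription factor, read -0.13 in the control and 0.74 in the G15 array, and -0.12 in the E2-BSA and 0.53 in the E2-BSA+G15 array. Its mean difference was 0.76 ± 0.16 (SE; limma adjusted p = 0.664). The ICI arrays read 0.48 and -0.19, so that 1 of them lay with the arrays without an antagonist. SCGB2B2, a secretoglobin family gene, was higher by 0.73 and 0.61, and LAMP5, a lysosome-associated membrane protein of neurons, by 0.57 and 0.55. WNT10B, a WNT ligand, was 0.49 and 0.48 higher and differed by 0.06 and 0.01 in the ICI pairs. Smaller or less even differences were those of TAF12, a subunit of the general transcription factor TFIID (0.47 and 0.78), of the noncoding RNA genes LINC00958 (0.46 and 0.66) and LINC00917 (0.61 and 0.40), of the selenoprotein gene SELENOM (0.42 and 0.56), of SERPINI1, a neural serine protease inhibitor (0.48 and 0.42), and of HAMP, the iron hormone hepcidin (0.40 and 0.61). The 10 genes are each read by 1 probe set. The duplicates were further apart than the G15 pairs for TAF12, by 1.94 between the control and 1.24 between the E2-BSA arrays, and for SELENOM, by 1.17 and 0.87. For SERPINI1 and LINC00958 this held between the control arrays (0.95 and 0.75) but not between the E2-BSA arrays (0.12 and 0.05). LAMP5 duplicates were 0.50 and 0.85 apart, while those of SCGB2B2 were 0.06 and 0.05 apart.

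**Figure D2:**
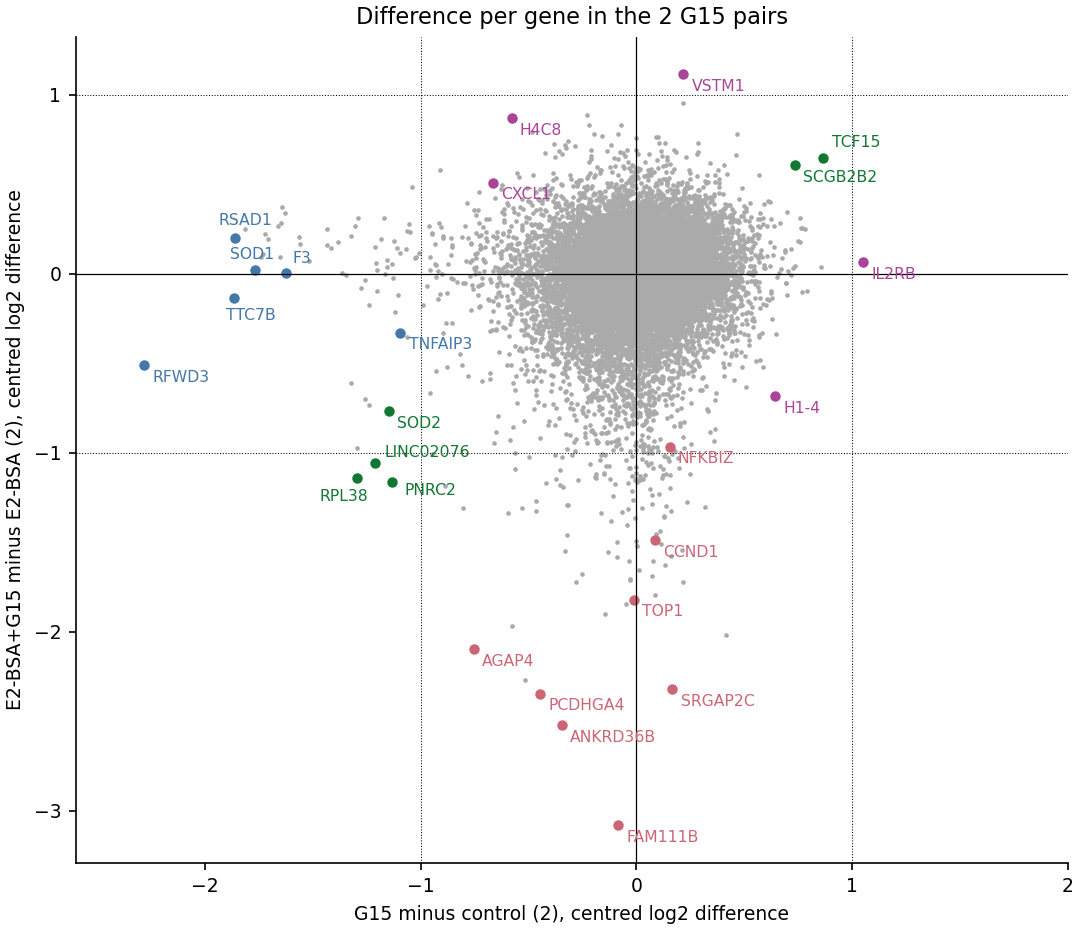
Centred log2 difference of each of 19775 genes in the pair without E2-BSA (horizontal) and with E2-BSA (vertical), with dotted lines at 1 and -1 and selected genes in colour. The low genes form 2 arms along the axes, 64 in the G15 pair and 129 in the E2-BSA+G15 pair, and 3 genes lie beyond -1 in both.

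In the pair without E2-BSA, 64 genes were lower by more than 1 in the G15 array (0.324% of genes) and 1 was higher (0.00506%). The largest difference was that of RFWD3, a ubiquitin ligase of DNA repair, which read 1.497 in the control and -0.79 in the G15 array. Between duplicates of RFWD3, first minus second array was -1.64 for the control and -1.54 for the E2-BSA arrays. RFWD3 read 1.45 and 0.94 in the E2-BSA and E2-BSA+G15 arrays, and -0.95 and -1.15 in the ICI and E2-BSA+ICI arrays. The G15 array thus lay with both ICI arrays, and the E2-BSA+G15 array with the second control and second E2-BSA arrays. TTC7B, a scaffold of a phosphatidylinositol kinase complex, RSAD1, a radical SAM domain protein, and SOD1, the cytosolic superoxide dismutase, had the same arrangement. Their differences in the G15 pair were -1.87, -1.86 and -1.77, those in the E2-BSA+G15 pair -0.13, 0.20 and 0.02, and in the E2-BSA+ICI pair -1.60, -1.80 and -1.32. ATG101, a subunit of the autophagy-initiating ULK1 complex, was lower by 1.81 in the G15 pair and by 0.35 in the E2-BSA+ICI pair.

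Of these 64 genes, 26 (40.6%) were also lower by more than 1 in the E2-BSA+ICI pair, which shares no array with the G15 pair and in which 0.177% of all genes were that low. The 26 are 74.3% of the 35 genes that low in the E2-BSA+ICI pair. In the E2-BSA+G15 pair, which also shares no array, 3 of the 64 were that low (4.69%, against 0.652% of all genes), and their median difference was 0.10. A single probe set read 46 of the 64 genes (71.9%, against 46.8% of all genes), and none of the other 18 had every probe set below -1. The G15 array was the lowest of all 11 in 41 of the 64, which were chosen for being low in it. Between the control arrays, 16 of the 64 differed by more than 1 (25%, against 5.14% of all genes). Between the E2-BSA arrays 14 did (21.9%, against 4.83%).

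The following members were named after their values were seen. F3, tissue factor, was lower by 1.62, PROCR, the endothelial protein C receptor, by 1.44, S100A4, a calcium-binding protein, by 1.66, and PTX3, a pentraxin of innate immunity, by 1.32. In the E2-BSA+G15 pair F3 differed by 0.00, PROCR by 0.16, S100A4 by 0.27 and PTX3 by -0.61. IMMT, an organiser of mitochondrial cristae, was lower by 1.71 and LMNB1, lamin B1, by 1.24. DPM3, a subunit of dolichol-phosphate mannose synthase, and THAP9-AS1 were lower by 1.73 and 1.74 in the G15 pair but by 0.11 and 0.20 in the ICI pair. In the G15 array they read -1.74 and -1.70, the lowest of all 11 arrays for each. The 1 gene higher by more than 1 was IL2RB, a chain of the interleukin-2 receptor, at 1.05. TCF15 followed at 0.87, and then KIR3DL3, ANKRD35 and HBQ1 at 0.86, 0.79 and 0.78, which differed by 0.04, -0.10 and 0.25 with E2-BSA.

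In the pair with E2-BSA, 129 genes were lower by more than 1 in the E2-BSA+G15 array (0.652% of genes) and 1 was higher (0.00506%). After quantile normalization these counts were 63 and 13. FAM111B, a serine protease-like protein of DNA replication, read 0.58 in the E2-BSA and -2.51 in the E2-BSA+G15 array, a difference of -3.08. FAM111B read 0.69 in the control, 0.60 in the G15, 0.63 in the ICI and 0.45 in the E2-BSA+ICI array, so that 1 array of the 6 was low. Both of its probe sets were low, at -2.82 and -3.35. The same single array was low for ANKRD36B (-2.52), PCDHGA4 (-2.35), SRGAP2C (-2.32) and a probe set annotated to the microRNA gene MIR302B (-2.27), which in the G15 pair differed by -0.35, -0.45, 0.17 and -0.52. SRGAP2C and ANKRD36B belong to recently duplicated gene families, and PCDHGA4 to a cluster whose members share exons, so their probe sets may read relatives.

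The E2-BSA+G15 array was the lowest of all 11 arrays for 108 of the 129 genes, which were chosen for being low in it. Between the control arrays, 42 of the 129 differed by more than 1 (32.6%, against 5.14% of all genes). Between the E2-BSA arrays 32 did (24.8%, against 4.83%). Of the 129, 3 (2.33%) were as low in the G15 pair and 6 (4.65%) in the ICI pair, in which 0.238% of all genes were. In the E2-BSA+ICI pair, which shares the E2-BSA array, their median difference was 0.01. Again named after their values were seen, TOP1, DNA topoisomerase I, was lower by 1.82 in this pair and by 0.01 in the G15 pair. TPR, of the nuclear pore basket, was lower by 1.80, ASPM, of the spindle poles, by 1.84, and the chromatin remodeller CHD4 by 1.60. The cohesin subunits SMC3, RAD21 and STAG2 differed by -1.59, -1.501 and -1.24, and by -0.09, -0.09 and -0.11 in the G15 pair. The nuclear noncoding RNA MALAT1 was lower by 1.61. CCND1, cyclin D1, was lower by 1.49, and GNAI2, an inhibitory G protein alpha subunit of the GPER list, by 1.36.

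Within a gene, the low values came from some probe sets and not from others. Of the 129 genes, 105 had more than 1 probe set and 24 had 1 (18.6%, against 46.8% of all genes). In 4 of these every probe set was below -1, and in 100 at least 1 was above -0.5. TOP1 had one probe set at -3.52 and another at -0.12. RAD21 had -2.86 and -0.14, and CCND1 -2.83 and -0.15. For these 3 genes the same probe sets differed by -0.07 and 0.04, 0.43 and -0.62, and 0.36 and -0.19 in the G15 pair. Over all 41097 probe sets with 1 gene, 628 were lower by more than 1.5 and 0 higher in the E2-BSA+G15 pair, against 116 and 0 in the G15 pair and 70 and 0 in each ICI pair. The low genes were long: their median RefSeq gene length was 57.6 kb, against 24.7 kb for the 19738 genes with a length and 16.9 kb for the 64 low genes of the G15 pair. The share of genes below -1 in the E2-BSA+G15 pair was 0.177% among the shortest of 5 equal groups by length and 1.14% among the longest. In the G15 pair these shares were 0.380% and 0.253%. The part of the low 18S control in these values was not tested.

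Genes of the splicing machinery, which removes introns in the nucleus, had the most members called in the test of the difference between the pairs given further on: 8 of 30, all with the E2-BSA+G15 pair the lower one, as in 2.22% of all genes. Of the 30 genes of the spliceosome and its regulators, 15 were lower in both pairs (50%) and 5 higher (16.7%), against 27.0% each way over all genes. Their medians were -0.03 in the G15 pair and -0.10 in the E2-BSA+G15 pair. Without centring 5 were lower and 10 higher in both, and the G15 median was 0.13. With the median of each gene's probe sets in place of their mean, 8 were lower and 3 higher in both. The list medians were then -0.01 and -0.08. After quantile normalization 15 were lower and 4 higher. The count lower in both thus depended on averaging the probe sets. In the E2-BSA+G15 pair, 26 of their 135 probe sets were below -1 (19.3%, against 2.71% of all probe sets), and in the G15 pair 1 was. The 26 fell in 12 genes, each of which had another probe set within 0.5 of the median gene. Apart from LUC7L3 and SF3B1, the examples were chosen after their values were seen. DDX17, an RNA helicase, ranged from -3.05 to 0.05 over its 5 probe sets, and SON, a scaffold of nuclear speckles, from -3.23 to 0.20. The splicing factor genes RBM25, LUC7L3 and PNISR reached -2.97, -2.68 and -2.80. SF3B1, of the U2 particle, had probe sets from -2.40 to 0.15 there and from -1.19 to 0.24 in the G15 pair. By contrast, all 8 probe sets of SRSF1 and all 4 of HNRNPA2B1 lay within 0.5.

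**Figure D3:**
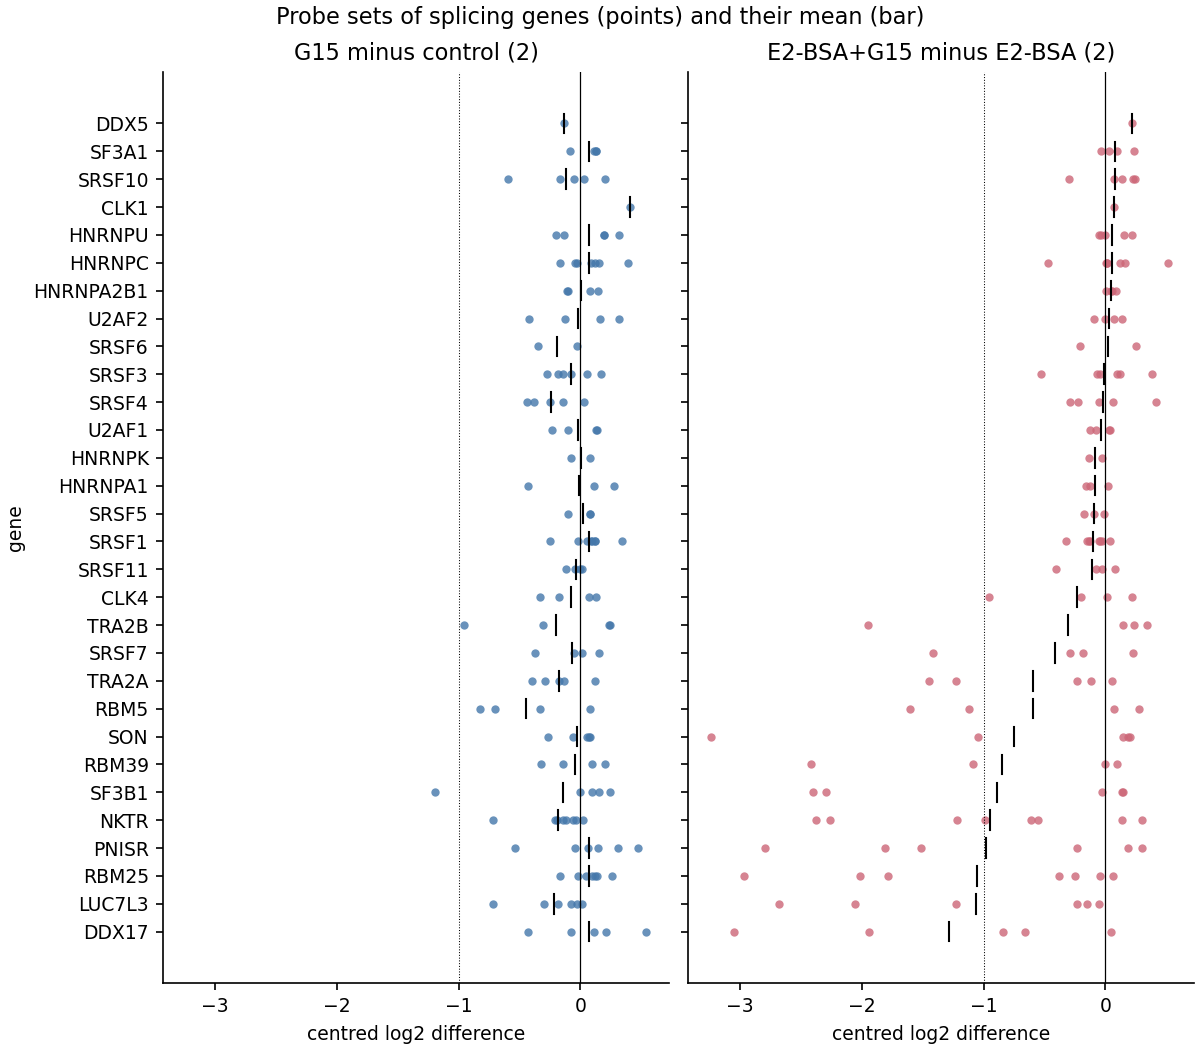
Centred log2 difference of every probe set (points) and of the gene mean (bars) for 30 splicing genes in the pair without (left) and with E2-BSA (right), on the same axis, with a dotted line at -1. On the right 26 of 135 probe sets lie below -1, on the left 1, and low and near-zero probe sets occur in the same gene.

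On the higher side of this pair, VSTM1, an inhibitory receptor of myeloid cells, was higher by 1.11. GPC2, a heparan sulfate proteoglycan, the noncoding RNA gene NBAT1, the histone gene H4C8 and the pseudogene ANKRD20A5P were higher by 0.95, 0.88, 0.87 and 0.83. In the G15 pair they differed by 0.22, 0.22, -0.23, -0.58 and -0.22 in the same order.

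Genes of NF-kB and of inflammatory cytokines, which transmit and follow inflammatory signals, were mixed: of 29 measured, 14 had the same sign in both pairs and 15 opposite signs. NF-kB is a family of dimeric transcription factors held in the cytoplasm by IkB proteins until a signal releases them, and it binds the kappa-B motif. MDA-MB-231 cells are known for constitutive NF-kB activity. The chemokine genes CXCL1 and CXCL3 and the feedback inhibitor gene TNFAIP3 carry this motif close upstream of their starts. Their upstream stretches are shown because these chemokine and inhibitor genes are the ones described in most detail next. Each is 250 bases, 5′ to 3′ on the gene's strand, from RefSeq on GRCh38.p14, with matches to the kappa-B motif on either strand in capitals. CXCL1 lies at chr4:73869143-73869392 on the + strand, CXCL3 at chr4:74038690-74038939 on the - strand and TNFAIP3 at chr6:137867009-137867258 on the + strand.
CXCL1: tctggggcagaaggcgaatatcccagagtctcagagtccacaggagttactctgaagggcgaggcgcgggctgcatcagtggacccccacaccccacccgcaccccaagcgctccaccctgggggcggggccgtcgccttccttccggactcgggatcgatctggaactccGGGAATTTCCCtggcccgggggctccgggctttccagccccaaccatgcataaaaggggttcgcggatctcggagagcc
CXCL3: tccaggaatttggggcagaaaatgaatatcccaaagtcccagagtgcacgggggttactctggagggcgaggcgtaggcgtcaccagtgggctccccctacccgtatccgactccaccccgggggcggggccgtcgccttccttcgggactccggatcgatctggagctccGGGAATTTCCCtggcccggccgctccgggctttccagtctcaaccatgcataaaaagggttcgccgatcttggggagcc
TNFAIP3: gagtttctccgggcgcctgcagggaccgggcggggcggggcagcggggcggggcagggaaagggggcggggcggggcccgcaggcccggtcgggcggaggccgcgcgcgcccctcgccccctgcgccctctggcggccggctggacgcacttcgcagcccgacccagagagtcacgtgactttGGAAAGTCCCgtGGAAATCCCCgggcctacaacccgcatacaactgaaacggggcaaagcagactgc

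In CXCL1 and CXCL3 the marked stretch holds 2 overlapping matches, starting 79 and 78 bases before the gene start. TNFAIP3 holds 2 separate matches, starting 67 and 55 bases before. Of the 22 list genes with a promoter entry, 14 held a match (63.6%), against 14.4% of the 15384 measured genes with one. A match is a description of these letters and says nothing of binding. The list's genes were chosen as known NF-kB targets.

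CXCL1, a neutrophil-attracting chemokine, read -2.08 in the control and -2.75 in the G15 array, and -1.33 in the E2-BSA and -0.82 in the E2-BSA+G15 array. It was lower by 0.67 with G15 alone and higher by 0.51 with G15 in the presence of E2-BSA. The ICI arrays read -2.18 and -1.34, differences of -0.10 and -0.01. Set the other way, the difference made by E2-BSA was 0.75 between the second arrays without an antagonist, 0.85 with ICI and 1.93 with G15. The test of the difference between the G15 pairs took the E2-BSA difference with G15 and subtracted the mean of those without an antagonist and with ICI. It gave 1.13 ± 0.16 (SE) for CXCL1 and passed the test across genes (limma adjusted p = 0.0042). CXCL1 was named for its opposite differences in the same pairs, so the test is not independent of that choice. CXCL1 differed by 2.82 between the 2 control arrays and by 3.94 between the 2 E2-BSA arrays, more than in any of these pairs. In both cases the first array was the higher one. The E2-BSA difference between the first arrays, which were not in this test, was therefore larger than 0.75. A larger E2-BSA difference for CXCL1 was thus not particular to G15. Over all 11 arrays CXCL1 ranged from -2.75 to 3.35, with the G15 array lowest.

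Of the members described next, CXCL8, CXCL3, IL1A and NFKBIZ were chosen after their values were seen. CXCL8, interleukin-8, had the same signs, at -0.39 and 0.31, as did CXCL3 at -0.24 and 0.45. The ICI pairs gave -0.44 and -0.20 for CXCL8 and -0.27 and -0.01 for CXCL3. The differences between the G15 pairs did not pass the test for either (limma adjusted p = 0.103 for CXCL8 and 0.122 for CXCL3). TNFAIP3, the ubiquitin-editing protein A20 that ends NF-kB signalling, read -0.90 in the control and -1.996 in the G15 array, and -0.40 in the E2-BSA and -0.73 in the E2-BSA+G15 array. Both of its probe sets were lower in both pairs, by 0.73 and 1.46 without E2-BSA and by 0.16 and 0.50 with it. In the ICI pairs TNFAIP3 was lower by 0.40 and 0.20. IL1A, interleukin-1 alpha, was lower by 0.69 and 0.14. NFKBIZ, a nuclear IkB protein that acts as coactivator, went the other way, at 0.15 and -0.97. Its probe sets differed by -1.66 and -0.27 in the E2-BSA+G15 pair, and the difference between the pairs passed the test (-1.19 ± 0.16 (SE), limma adjusted p = 0.0037). A cytokine gene higher in both pairs was IL6, interleukin-6, by 0.38 and 0.45. IL6 differed by 4.15 between the control and 4.38 between the E2-BSA arrays. Duplicates were likewise further apart than the G15 pairs for CXCL8 (4.69 and 5.11), CXCL3 (1.81 and 2.93) and TNFAIP3 (1.15 and 1.42). NFKB1, which encodes the p50 precursor, was 0.24 and 0.48 higher and CXCL10 0.28 and 0.27.

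Over the 29 measured genes of the list, 6 were higher and 8 lower in both pairs, and 10 were lower in the G15 pair and higher in the E2-BSA+G15 pair (34.5%, against 23.0% of all genes). The reverse held for 5 (17.2%, against 23.0%). The medians were -0.06 and 0.11. The sign of the first depended on the scaling: it was 0.10 without centring and 0.06 after quantile normalization. In the difference between pairs, 1 gene was called higher and 1 lower, CXCL1 and NFKBIZ, against 1.32% and 2.22% of all genes.

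**Figure D4:**
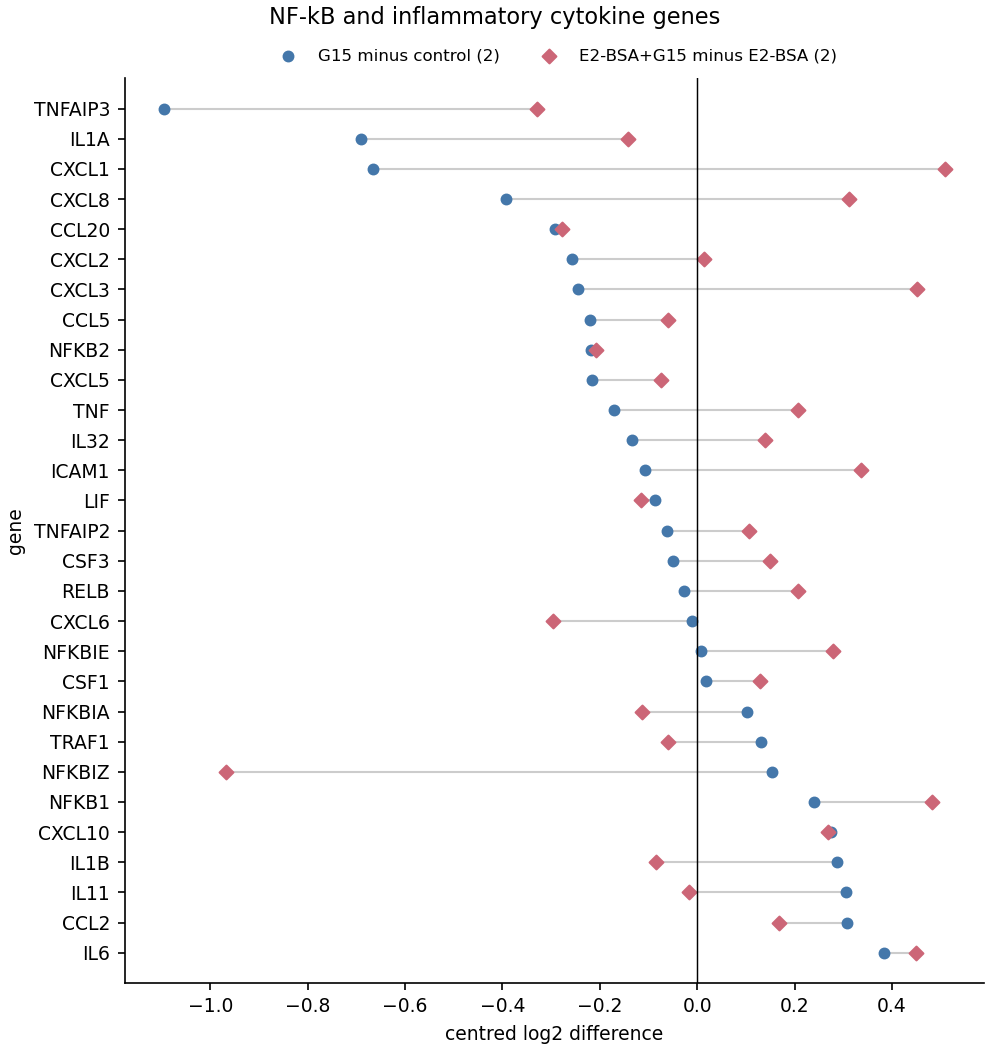
Centred log2 difference of 29 genes of NF-kB and inflammatory cytokines in the pair without E2-BSA (blue circles) and with E2-BSA (red diamonds), ordered by the first. CXCL1, CXCL8 and CXCL3 lie left of 0 without and right of 0 with E2-BSA, and NFKBIZ the other way.

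The other lists moved little. Of 40 lists, 38 had a median within 0.1 of the median gene in the G15 pair and 36 in the E2-BSA+G15 pair. Metal response genes, whose metallothioneins bind zinc and copper, had the highest median in the G15 pair, 0.14, and 0.14 in the E2-BSA+G15 pair as well. Of 9 measured, 5 were higher and 0 lower in both pairs. MT1F was higher by 0.54 and 0.20, MT2A by 0.17 and 0.12, and the zinc exporter gene SLC30A1 by 0.17 and 0.30. The list's ICI medians were 0.14 and 0.11. Interferon-stimulated genes, which follow type I interferon, had 13 of 27 members higher and 3 lower in both pairs, with medians of 0.00 and 0.16. ISG15 was higher by 0.27 and 0.25, IFI35 by 0.30 and 0.27, IFI27 by 0.35 and 0.24, and IRF7, a transcription factor of the response, by 0.36 and 0.19. SAMD9, which restricts virus replication and was named after its values were seen, was lower by 1.21 in the G15 pair, from one of its probe sets at -2.16 beside another at -0.26.

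Respiratory chain genes had 12 of 25 members higher and 5 lower in both pairs, with medians of 0.06 and 0.08. Among them were NDUFA9 of complex I (0.44 and 0.24) and CYC1 of complex III (0.38 and 0.22). In the BCL2 family, 8 of 17 were higher and 3 lower in both pairs. The proapoptotic genes BMF and BAX were higher by 0.44 and 0.36 and by 0.40 and 0.14, and PMAIP1, also proapoptotic, was lower by 0.32 and 0.70. Krüppel-like transcription factor genes had 6 of 13 lower and 1 higher, with medians of -0.01 and -0.12, but 3 lower and 3 higher without centring. KLF12 was lower by 0.28 and 0.25 and KLF13 by 0.17 and 0.49. KLF10, a TGF-beta inducible member, was higher by 0.24 and 0.26. Actin and focal adhesion genes had 8 of 21 lower and 4 higher. ZYX, zyxin, was lower by 0.39 and 0.32 and ACTN1, alpha-actinin, by 0.26 and 0.21. Without centring this list had 4 lower and 8 higher.

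Genes that estrogen is known to induce in receptor-positive cells had 6 of 25 members higher and 8 lower in both pairs, with medians of -0.02 and -0.05. Without centring 11 were higher and 4 lower, with medians of 0.15 and 0.01. TFF1 was lower by 0.53 and 0.26 in the G15 pairs, and by 0.41 and 0.46 in the ICI pairs. CTSD, cathepsin D, was lower by 0.24 and 0.22. Aryl hydrocarbon receptor targets had 5 of 11 lower and 1 higher, and without centring 0 lower and 5 higher. CYP1B1, an estradiol-metabolising enzyme, was lower by 0.12 and 0.42. The mitotic kinase genes AURKB and AURKA were lower by 0.57 and 0.85 and by 0.92 and 0.14, in a list of G2/M genes with 6 of 32 lower and 8 higher. HSP90B1, an endoplasmic reticulum chaperone, was lower by 0.58 and 1.97, while 13 of 36 genes of the unfolded protein and amino acid stress list were higher and 5 lower. Markers of leukocytes, fibroblasts and endothelial or red cells had medians between -0.03 and 0.05 in both pairs.

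**Figure D5:**
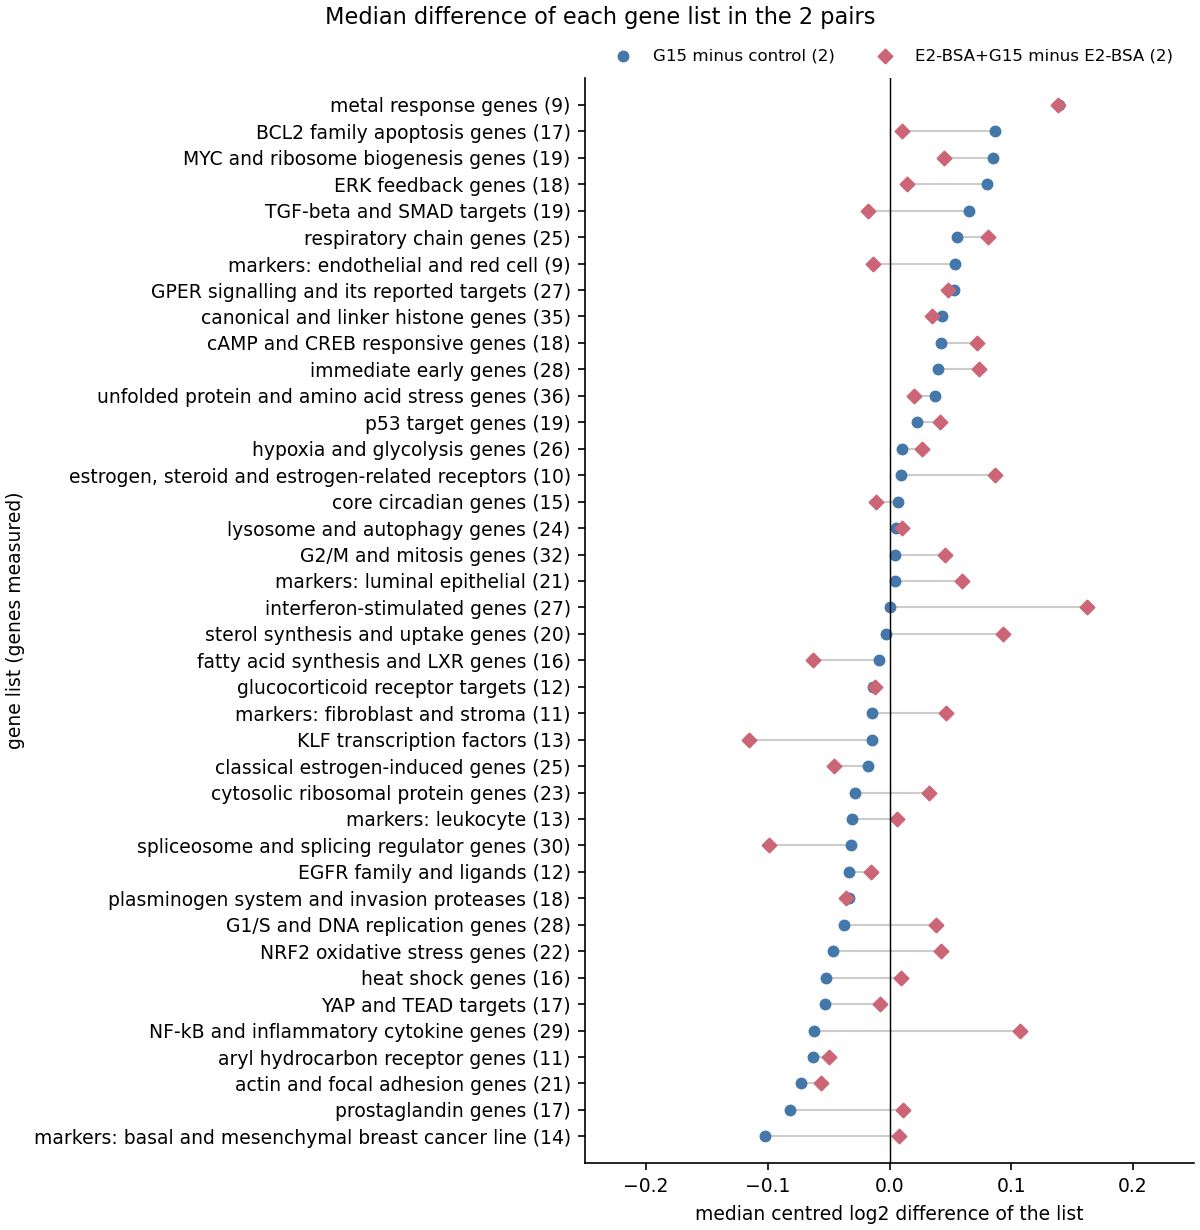
Median centred log2 difference of each of 40 gene lists in the pair without E2-BSA (blue circles) and with E2-BSA (red diamonds), with the number of genes measured in brackets. The medians run from -0.10 to 0.14 in the G15 pair and from -0.12 to 0.16 in the E2-BSA+G15 pair.

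Whether the pairs differed from each other was tested with a G15 by E2-BSA term. Of 19775 genes, 700 were called (3.54%). The difference with E2-BSA present was the lower one in 439 (2.22%) and the higher one in 261 (1.32%), with 327 and 80 called without centring. The largest was FAM111B, at -2.97 ± 0.16 (SE; limma adjusted p = 4.05e-05), followed by SRGAP2C at -2.55 and ANKRD36B at -2.48. On the other side SUPV3L1, a mitochondrial RNA helicase named after its values were seen, reached 2.20. Of the 439, 350 (79.7%) were lower by more than 0.5 in the E2-BSA+G15 pair and not in the G15 pair, and of the 261, 165 (63.2%) were lower by more than 0.5 in the G15 pair and not in the other. Most calls were thus genes low in 1 of the 2 pairs. The spread in this test came from 1 residual degree of freedom, the difference that E2-BSA made with ICI against without it. With the 2 further arrays of control and E2-BSA and a term for the spike-in sets, 70 genes were called, and without that term 0.

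Opposite signs in the pairs, by any amount, were found for 23.0% of genes each way. The genes named here, with CXCL1, had the largest opposite differences. The linker histone gene H1-4 was higher by 0.64 with G15 alone and lower by 0.68 with E2-BSA. It read -0.10 in the control, 0.54 in the G15, -0.04 in the E2-BSA and -0.72 in the E2-BSA+G15 array, and 0.24 and 0.25 in the ICI arrays. Core histone gene H4C8 went the other way, at -0.58 and 0.87, and its probe sets gave -1.18 and 0.67 in one case and 0.02 and 1.07 in the other. Histone genes are near-identical copies, and their transcripts can be read by each other's probe sets. NR2F2-AS1, DNAH8, TCL1B and SAMD1 were 0.49 to 0.58 higher and 0.49 to 0.63 lower, and USP46-DT, LINC02606 and the piRNA pathway gene MAEL were 0.54 to 0.91 lower and 0.54 to 0.58 higher. All of these passed the test of the difference, with limma adjusted p from 0.0013 to 0.015. They were named for their opposite differences in the same arrays, so the test is not independent of their choice.

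At the same dose and time, no gene passed the test of G15 against ICI. This was the 1 pair of compounds compared, and 0 of 19775 genes were called (0%), with 1216 at an unadjusted p under 0.05 and a smallest limma adjusted p of 0.773. The genes with the smallest p were higher with G15 than with ICI by 0.89 ± 0.12 (SE) for BCHE, butyrylcholinesterase, and by 0.96 ± 0.13 for DENND4B, a Rab exchange factor. BCHE read 0.65 and 0.83 in the arrays with G15, -0.10 and -0.21 in those with ICI, and 0.76 and 0.55 in the control and E2-BSA arrays. Both arrays with G15 thus lay with the second control and second E2-BSA arrays. For BCHE, first minus second array was -1.40 in the control and -1.40 in the E2-BSA duplicates. AJM1, a junction protein, was higher with G15 by 0.70 ± 0.10, RTN4IP1, of mitochondria, by 0.62 ± 0.10 and LINC01963 by 0.78 ± 0.13. On the lower side were NEURL3, a ubiquitin ligase, by 0.65 ± 0.09, the amino acid transporter gene SLC38A5 by 0.83 ± 0.14, LINC01231 by 0.66 ± 0.12, PATL2 by 0.57 ± 0.10 and TAF1L by 0.57 ± 0.10. NEURL3 read -0.13 and -0.33 with G15, 0.49 and 0.35 with ICI, and 0.00 and -0.13 without an antagonist. The 95% interval of the difference was 0.60 to 1.18 for BCHE and -0.87 to -0.43 for NEURL3, before any adjustment for the number of genes, and -0.13 to 0.34 for GPER1. Over all genes its median half-width was 0.26, so that differences of that size are not shown to be absent, and the compounds are not shown to act alike. With the E2-BSA+G15 array left out, 3 genes were called lower with G15: THAP9-AS1 at -1.56 ± 0.12 (SE), DPM3 at -1.55 ± 0.14 and, named because it was called here, CRIM1-DT at -1.19 ± 0.13. With the G15 array left out, 1355 were called.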

How the data were processed

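The deposited values are log2 values per probe set from Affymetrix HG-U133 Plus 2.0 arrays, centred by the authors. The deposited files do not state the log base, and the summary and normalization methods are not given in the sources used here. Total RNA was labelled by the Affymetrix protocol, per the labels. Of 54675 probe sets, 41097 had 1 gene symbol in the platform annotation, 1801 had several and 11777 were not listed. The former were averaged to 19775 genes, 9252 of them with 1 probe set.

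Differences were fitted with limma 3.58.1 in R 4.3.3 to 6 arrays (control (2), E2-BSA (2), and the 4 antagonist arrays), with terms for E2-BSA, ICI and G15 (2 residual degrees of freedom), Benjamini-Hochberg adjustment over all genes at 0.05. A G15 by E2-BSA term (1 residual degree of freedom) tested the difference between pairs. The fit was tested on simulated data. No filter on dim probes was possible, since centred values hold no brightness. Exact permutation of 2 against 2 arrays cannot go below p = 0.333. The comparison, the 40 gene lists and the named genes rule were chosen with earlier results of these data known. Named genes were the estrogen receptors and EGFR, the 10 largest shared differences in each direction, called genes, up to 6 per list, and, in each direction, the 5 most opposite, the 5 smallest p against ICI and the 5 largest in each pair; others are marked as chosen after their values were seen. Promoters came from RefSeq.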

Additional observations from a re-analysis of the deposited data

Results flagged for a closer look

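A control outside the comparisons stood apart: the 18S rRNA probe sets averaged -1.65 on the E2-BSA+G15 array. Among genes named by rule, the G15 difference itself differed between the pairs in the following, given as the E2-BSA difference with G15 minus the mean of those without an antagonist and with ICI, each with a limma adjusted p under 0.05. The E2-BSA+G15 pair was the lower one for FAM111B by -2.97, SRGAP2C by -2.55, ANKRD36B by -2.48, PCDHGA4 by -2.09, MIR302B by -1.88, AGAP4 by -1.56, H1-4 by -1.30, DNAH8 by -1.14, NR2F2-AS1 by -1.12, SAMD1 by -1.09, IL2RB by -0.99 and TCL1B by -0.95. It was the higher one for RSAD1 by 1.996, RFWD3 by 1.85, TTC7B by 1.83, SOD1 by 1.76, ATG101 by 1.67, H4C8 by 1.40, USP46-DT by 1.33, CXCL1 by 1.13, MAEL by 1.10, LINC02606 by 0.98, NBAT1 by 0.95, ANKRD20A5P by 0.94, VSTM1 by 0.92 and GPC2 by 0.69. Among members named from the gene lists, the E2-BSA+G15 pair was the lower one for HSP90B1 by -1.51, LUC7L3 by -0.96, NKTR by -0.82, SF3B1 by -0.77, HSP90AA1 by -0.76 and GPAM by -0.67. Among genes named after their values were seen, it was the lower one for TOP1 by -1.86, TPR by -1.86, ASPM by -1.85, MALAT1 by -1.77, CHD4 by -1.64, CCND1 by -1.58, SMC3 by -1.57, GNAI2 by -1.52, DDX17 by -1.42, RAD21 by -1.42, RBM25 by -1.21, NFKBIZ by -1.19, STAG2 by -1.17, PNISR by -1.12 and SON by -0.77, and the higher one for SUPV3L1 by 2.20, DPM3 by 2.005, IMMT by 1.84, THAP9-AS1 by 1.81, CRIM1-DT by 1.39, F3 by 1.39, S100A4 by 1.38, PROCR by 1.33, SAMD9 by 1.15, LMNB1 by 0.89 and PTX3 by 0.72. Most of these genes were named for their differences in the same arrays, so the test is not independent of their choice.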

How the results depend on the processing

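No paired analysis was possible because the G15 groups hold 1 array each and so share no pair of replicate numbers with other groups; the pairing by E2-BSA is part of the fit. For the mean of both G15 pairs, 0 genes were called under every setting except 1 without probe sets that can match several transcripts, and 0 to 737 with 1 array left out. For the difference between the pairs, 700 genes became 407 without centring, 194 after quantile normalization, 345 without those probe sets, 70 with 8 or with 11 arrays and a spike-in set term, and 0 with 8 arrays and no such term. It could not be fitted with 4 arrays or an array left out. G15 against ICI gave 0 to 1355 genes with 1 array left out. Without centring, 3 and 2 genes were higher by more than 1 in the G15 and E2-BSA+G15 pairs, and 16 were lower and 16 higher by more than 0.5 in both. After quantile normalization, 2 and 13 were higher and, in the E2-BSA+G15 pair, 63 lower, with 29 lower and 20 higher in both. Without probe sets that can match several transcripts, 4 were higher in the E2-BSA+G15 pair. A limit of 0.58 gave 258 lower and 57 higher, and 513 lower and 77 higher. A limit of 1 in both gave 3 lower and 0 higher. With the means of both duplicates as references, 305 were lower and 311 higher. Among genes with more than 1 probe set, requiring every one past the limit, a setting chosen after seeing the data, left 0 lower and 0 higher in the G15 pair and 4 lower and 0 higher in the E2-BSA+G15 pair.

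Of the mean differences of 24 named genes, 7 changed sign under some setting; ESR1, ESR2 and EGFR lay near 0 in the report, and KPNA3, RPL27A, TAF12 and SELENOM did not. Without centring, ESR1 was 0.053 and EGFR 0.083. With the median of probe sets, ESR2 was -0.039 and EGFR 0.00046. Without the probe sets above, ESR2 was -0.011, EGFR 0.078 and KPNA3 0.0084. With 8 arrays and no set term, EGFR was 0.0039, RPL27A 0.24, TAF12 -0.17 and SELENOM -0.019. With 1 array left out, ESR2 ranged from -0.034 to 0.094 and EGFR from -0.21 to 0.16. The causes were not tested.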
